A study of Mus musculus with 12 samples.

Results

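The cytosolic ribosomal protein genes were followed across the brains of wild-type and interleukin-18 knockout mice. Members were chosen by name: array probes whose gene name began with Rpl or Rps followed by a digit, with Rplp0, Rplp1 and Rpsa added, and with pseudogene names, the Rps6k kinases and the stretch of chromosome 9 from 40.39 to 60.39 Mb around Il18 left out. A probe also had to clear the scanner's background test in every array of 1 group or more, and the brightest probe stood for its gene. Of 84 names, 81 genes were members among the 26463 genes tested. Rps25 was left out because its probes lay in the chromosome 9 stretch, and Rpl10l and Rpl39l because they were too dim. Of the members, 74 were standard ribosomal proteins, 45 of the large and 29 of the small subunit, and 7 were paralogs or other names that the pattern takes in (Rpl3l, Rpl7l1, Rpl22l1, Rpl36al, Rps4y2, Rps27l and Rps19bp1, the last a protein that binds a ribosomal protein). The low-signal filter hardly acted on the members: 80 of 81 were well above background on all 12 arrays, and Rpl3l was so on 11.

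Total RNA of whole brain of BALB/c mice was hybridised to 12 one-colour Agilent arrays, with 3 biological replicates in each of 4 groups: wild type at 6 weeks, wild type at 12 weeks, interleukin-18 knockout at 6 weeks and interleukin-18 knockout at 12 weeks. No animal was treated. Interleukin-18 is a cytokine of the interleukin-1 family, and the labels do not describe the knockout allele. A value below is the log2 signal relative to the 75th percentile of its own array, so 1 unit is a 2-fold difference, and a change is a difference of such values ± SE from limma.

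The cytosolic ribosome is built from ribosomal RNA and one copy each of most of its proteins, so the cell makes these proteins in matched amounts. Their mRNAs are among the most abundant in any cell and carry a terminal oligopyrimidine (TOP) tract at the 5′ end, through which mTOR signalling and Larp1 control how much of each is translated. An array measures the mRNA and says nothing of that translation step. In neurons, ribosomes and ribosomal protein mRNAs also reach dendrites and axons, where proteins are made locally.

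Promoter stretches are given for 4 standard members, 2 that rose at 12 weeks in the test described below and 2 that did not, to show the motifs counted in the promoters. They run from 70 bases before to 30 bases after the annotated start (RefSeq, build GRCm38.p6), 5′ to 3′ on the gene's strand. Capitals mark CCGGAAG, the core to which ETS-family factors such as GABP bind, on either strand, and CTTT within 10 bases before to 20 bases after the start, a plain stand-in for the pyrimidine tract.
Rpl38: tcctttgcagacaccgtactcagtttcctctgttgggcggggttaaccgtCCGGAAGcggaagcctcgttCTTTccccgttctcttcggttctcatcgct
Rps10: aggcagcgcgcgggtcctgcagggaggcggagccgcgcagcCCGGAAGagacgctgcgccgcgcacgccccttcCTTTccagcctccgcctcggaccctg
Rpl6: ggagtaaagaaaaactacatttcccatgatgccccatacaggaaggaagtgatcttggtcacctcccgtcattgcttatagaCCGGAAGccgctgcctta
Rps7: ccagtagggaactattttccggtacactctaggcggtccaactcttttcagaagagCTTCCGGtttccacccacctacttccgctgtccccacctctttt
The stretches are chr11:114668510-114668609 on the + strand for Rpl38, chr17:27635215-27635314 on the - strand for Rps10, chr5:121204431-121204530 on the + strand for Rpl6 and chr12:28635924-28636023 on the - strand for Rps7. All 4 hold CCGGAAG on one strand or the other, and Rpl38 and Rps10 also hold CTTT within the window around the start. Among members not shown, Rps6 and Rps9 hold CTTT there and did not rise, and Rpl37a and Rps2 lack it and rose. At 12 weeks Rpl38 (0.41 ± 0.09) and Rps10 (0.24 ± 0.08) rose in knockout brain, and after quantile normalization they changed by 0.02 ± 0.07 and -0.16 ± 0.07 without being called. Rpl6 changed by 0.02 ± 0.07 and Rps7 by -0.12 ± 0.10, neither called, and after quantile normalization both were called lower.

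RefSeq held promoter windows of 300 bases for 60 of the 81 members, 72 windows in all. CCGGAAG stood on either strand in 33.3% of the member windows, against 8.86% of all 32851 promoter windows. AAGATGGC, the core of the YY1 motif, stood on either strand in 8 of the 72 member windows, against 2.75% of all. CTTT near the start stood on the gene's own strand in 23.6% of member windows against 11.6% of all, and on the opposite strand in 6.94% against 11.3%. TATAAA stood in 9.72% against 13.6%. A match is a description of the letters in the window and does not mark a bound site. CCGGAAG stood in 31.2% of 32 windows of members that rose at 12 weeks and 35% of 40 windows of those that did not, AAGATGGC in 6.25% and 15%, and CTTT at the start in 25% and 22.5%. These differences were not tested.

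The knockout label held in every library: Il18 was lower in knockout brain by -1.84 ± 0.10 at 6 weeks (limma, adjusted p = 2.28e-05) and by -1.94 ± 0.10 at 12 weeks (adjusted p = 1.19e-05). All listed markers of neurons, astrocytes, oligodendrocytes and microglia were well above background on all 12 arrays. The 12 arrays came from 2 slides, which the labels do not mention and the file headers show. Slide 1 held 8 arrays, all the wild-type arrays and replicates 1 and 2 of the 6-week knockout, and slide 2 held 4 arrays, replicate 3 of the 6-week knockout and every 12-week knockout array. At 12 weeks the slide and the genotype therefore cannot be told apart from those arrays alone, and a fit with slide as a block rests on the 3 arrays of the 6-week knockout. Spots that cleared background made up 65.9% to 76.2% of an array, and the number of arrays limits the precision.

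At 12 weeks, knockout brain gave higher values than wild-type brain for a large share of the ribosomal protein genes: 41 of 81 rose and 0 fell (limma, adjusted p under 0.05), and with quantile normalization in place of the 75th percentile 7 were higher and 10 lower. In the same comparison 33% of all genes were called, 18.5% higher and 14.5% lower, so 50.6% of the members stood beside 18.5% of all genes on the higher side. After quantile normalization the shares of all genes were 15.2% and 14.6%. With slide as a block in limma, 0 of 81 members were called, beside 0.113% of all genes, and 0 had an unadjusted p under 0.05 (over the other 4 comparisons, 0 to 4 did). The share of all genes with an unadjusted p under 0.05 in the fits with the block is not given, so these unadjusted counts have nothing to stand beside. At an unadjusted p under 0.05 the fit without the block gave 52 members higher and 1 lower, beside 45.5% of all genes either way. The median change of the members was 0.25, with a range from -0.26 to 0.64, beside 0.02 for all genes tested. It was 0.08 with slide as a block and -0.03 after quantile normalization. Of the 81 members, 74 had a change above 0, as did 51.8% of all genes. The 3 knockout arrays lay wholly above the 3 wild-type arrays for 56 members, beside 29.2% of all genes, and wholly below them for 1, Rps4y2, beside 23.1%. In a bulk sample, fewer cells of a type and less RNA per cell cannot be told apart.

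The large and the small subunit gave much the same picture. Of the 45 large-subunit proteins 24 rose, with a median change of 0.24, and of the 29 small-subunit proteins 16 rose, with a median of 0.27; after quantile normalization the counts were 4 higher and 5 lower for the large subunit and 3 higher and 4 lower for the small. Of the 7 other names only Rpl36al was called.

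**Figure D1:**
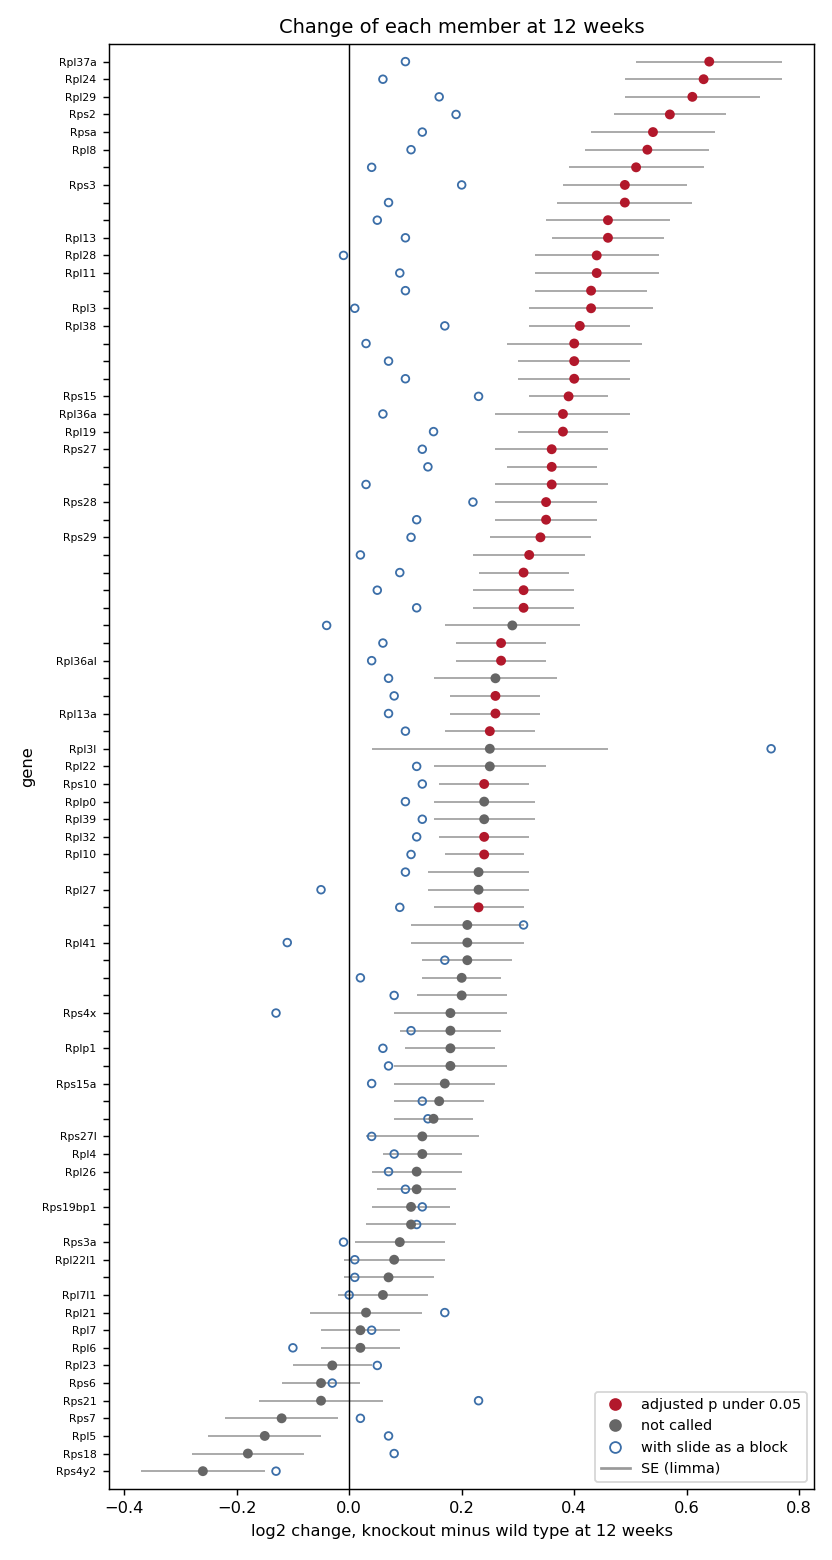
Log2 change at 12 weeks, knockout minus wild type, for each of the 81 members in order of size, with the names of the genes described in the text. Filled points with bars are the change ± SE from limma with 3 arrays per group, red where the adjusted p was under 0.05 (41 genes, all higher; 7 higher and 10 lower after quantile normalization), and open circles are the change with slide as a block, whose median is 0.08 and none of which was called.

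The largest rises were in Rpl37a, Rpl24 and Rpl29 of the large subunit and Rps2 of the small subunit. Rpl37a, a zinc-binding protein of the large subunit, measured 6.94, 7.13 and 7.10 in wild type at 12 weeks and 7.68, 7.80 and 7.62 in knockout. At 6 weeks it measured 7.17, 7.25 and 7.16 in wild type and 7.16, 7.23 and 7.74 in knockout. The 12-week groups did not overlap, and at 6 weeks replicates 1 and 2 of the knockout lay with the wild type while replicate 3, the array on slide 2, lay with the 12-week knockouts. The 12-week change was 0.64 ± 0.13 (limma, adjusted p = 0.00863), 0.10 ± 0.13 with slide as a block and 0.25 ± 0.08 after quantile normalization (adjusted p = 0.0351).

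Rpl24, the large-subunit protein at the bridge to the small subunit whose mutation gives the Belly spot and tail mouse, measured 6.27, 6.49 and 6.50 in wild type and 7.10, 7.02 and 7.03 in knockout at 12 weeks. At 6 weeks the wild types read 6.35, 6.49 and 6.38 and the knockouts 6.43, 6.55 and 7.06. Again replicate 3 of the 6-week knockout stood with the 12-week knockouts and replicates 1 and 2 did not. The 12-week change was 0.63 ± 0.14 (limma, adjusted p = 0.0107), 0.06 ± 0.14 with slide as a block and 0.29 ± 0.09 after quantile normalization.

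Rpl29 measured 6.43, 6.55 and 6.68 in wild type and 7.19, 7.19 and 7.10 in knockout at 12 weeks. The 6-week values were 6.74, 6.78 and 6.70 in wild type and 6.73, 6.82 and 7.21 in knockout. Its wild-type values at 12 weeks all lay below those at 6 weeks, a difference of arrays on the same slide that was not called. The 12-week change of Rpl29 was 0.61 ± 0.12 (limma, adjusted p = 0.00728), 0.16 ± 0.13 with slide as a block and 0.26 ± 0.06 after quantile normalization.

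Rps2, a small-subunit protein near the mRNA entry channel, measured 5.33, 5.32 and 5.50 in wild type and 5.93, 6.02 and 5.92 in knockout at 12 weeks. At 6 weeks it measured 5.48, 5.50 and 5.49 in wild type and 5.59, 5.62 and 5.98 in knockout. The 6-week groups also lay apart for Rps2, with replicates 1 and 2 slightly above the wild type and replicate 3 well above both. The 12-week change was 0.57 ± 0.10 (limma, adjusted p = 0.00605), 0.19 ± 0.11 with slide as a block and 0.32 ± 0.07 after quantile normalization. The 7 members still higher after quantile normalization were these 4 with Rpl8, Rps3 and Rpsa, the small-subunit protein also known as the laminin receptor. Rpsa changed by 0.54 ± 0.11 without the block (adjusted p = 0.00786) and 0.17 ± 0.06 after quantile normalization.

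**Figure D2:**
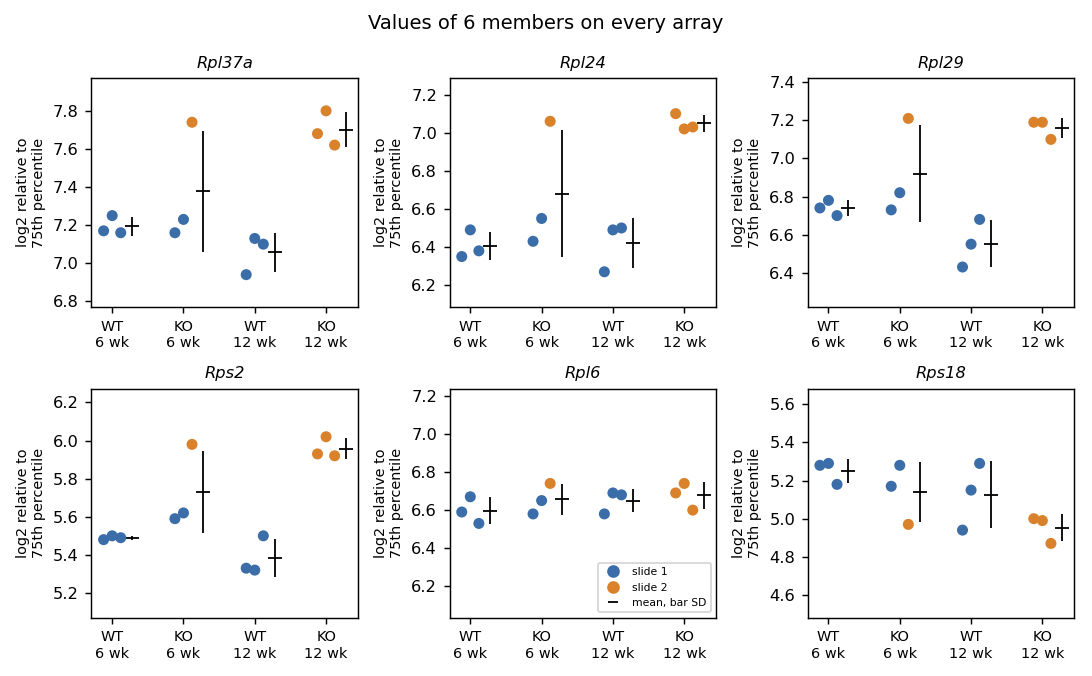
Values of Rpl37a, Rpl24, Rpl29, Rps2, Rpl6 and Rps18 on each of the 12 arrays, as log2 relative to the array's 75th percentile, by genotype and age; blue points are arrays of slide 1 and orange points arrays of slide 2, and the black mark and bar are the group mean and SD (n = 3). Each panel spans the same number of log2 units. For the 4 genes with the largest rises the single 6-week knockout array on slide 2 (Rpl37a 7.74, Rpl24 7.06, Rpl29 7.21, Rps2 5.98) sits with the 12-week knockouts, whereas Rpl6 is level and Rps18 is lower on slide 2.

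Not every member moved with them. The smallest and the negative changes at 12 weeks were those of Rpl6 (0.02 ± 0.07), Rpl7 (0.02 ± 0.07), Rpl23 (-0.03 ± 0.07), Rps21 (-0.05 ± 0.11), Rps6 (-0.05 ± 0.07), Rps7 (-0.12 ± 0.10), Rpl5 (-0.15 ± 0.10), Rps18 (-0.18 ± 0.10) and Rps4y2 (-0.26 ± 0.11), none of them called; they were picked out after their values were seen. Rps6, the substrate of the S6 kinases downstream of mTOR, read 6.23, 6.28 and 6.37 in wild type and 6.23, 6.30 and 6.20 in knockout at 12 weeks. Rpl5, which with Rpl11 and 5S RNA forms the particle that holds Mdm2, read 4.49, 4.63 and 4.64 in wild type and 4.39, 4.52 and 4.39 in knockout, and its groups overlapped. Its partner Rpl11 read 6.74, 6.96 and 7.0 in wild type and 7.37, 7.38 and 7.28 in knockout, wholly apart, a change of 0.44 ± 0.11 (limma, adjusted p = 0.0146). After quantile normalization Rpl11 changed by 0.08 ± 0.06 and was not called. The other probes of Rpl11 gave 0.12 ± 0.07 and 0.09 ± 0.07, neither called. The 10 members called lower after quantile normalization were Rps18 (-0.40 ± 0.11), Rps7 (-0.36 ± 0.10), Rpl23 (-0.35 ± 0.10), Rps4y2 (-0.35 ± 0.11), Rpl5 (-0.33 ± 0.10), Rps6 (-0.32 ± 0.07), Rpl6 (-0.28 ± 0.06), Rpl7 (-0.26 ± 0.08), Rpl41 (-0.21 ± 0.06) and Rps3a (-0.21 ± 0.07). Without it, Rpl41 and Rps3a had changes above 0, of 0.21 ± 0.10 and 0.09 ± 0.08. Of the 41 members that rose under 75th-percentile scaling, 12 changed sign after quantile normalization.

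The stalk proteins Rplp0 and Rplp1, which recruit elongation factors, were not called at 12 weeks. Rplp0 read 6.32, 6.53 and 6.45 in wild type and 6.74, 6.65 and 6.62 in knockout (0.24 ± 0.09, limma, adjusted p = 0.0725). Rplp1 changed by 0.18 ± 0.08 (adjusted p = 0.0914), and for both genes the groups did not overlap. Some cytosolic ribosomal genes that the name pattern misses are no members. Their changes were 0.38 ± 0.07 for Rplp2, another stalk protein, 0.53 ± 0.13 for Fau, whose product is cut to a ribosomal protein, and 0.35 ± 0.09 for Gnb2l1 (Rack1). All 3 of these were called without a block and 0 with slide as a block or after quantile normalization. Rps25, left out for its place near Il18, changed by 0.26 ± 0.08 (adjusted p = 0.033), close to the members' median.

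Members in common use as reference genes for qPCR were among those called at 12 weeks without the block. Rpl19 (0.38 ± 0.08, limma, adjusted p = 0.0089), Rps29 (0.34 ± 0.09, 0.0214), Rpl13a (0.26 ± 0.08, 0.0364) and Rpl32 (0.24 ± 0.08, 0.0395) were called higher. After quantile normalization Rps29 (-0.07), Rpl32 (-0.06) and Rpl13a (-0.02) were on the other side of 0 and not called. Rpl19 was then at 0.11 ± 0.05 and not called either. With slide as a block, 0 members were called. Rpl27 (0.23 ± 0.09, 0.0726) and Rps18 (-0.18 ± 0.10, 0.211) were not called. Rpl13a read 6.08, 6.22 and 6.24 in wild type and 6.44, 6.53 and 6.36 in knockout, and Rps18 read 4.94, 5.15 and 5.29 against 5.0, 4.99 and 4.87. A second Rps18 probe gave 0.23 ± 0.08, and the differences among these genes were not tested.

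The paralogs were mostly not called beside their parents. Rpl36al, an intronless relative of Rpl36a with a near-identical protein, read 4.20, 4.25 and 4.26 in wild type and 4.51, 4.54 and 4.46 in knockout at 12 weeks (0.27 ± 0.08, limma, adjusted p = 0.0339), and Rpl36a changed by 0.38 ± 0.12 (adjusted p = 0.0306). Rpl22l1 changed by 0.08 ± 0.09 and Rpl22 by 0.25 ± 0.10, Rps27l by 0.13 ± 0.10 and Rps27 by 0.36 ± 0.10, Rpl7l1 by 0.06 ± 0.08 and Rpl7 by 0.02 ± 0.07, and Rps19bp1 by 0.11 ± 0.07. Of these, only Rps27 was called (adjusted p = 0.0255). Whether a paralog differed from its parent was not tested. Rpl3l, the muscle form of Rpl3, was near background and varied most, with a pooled SD of 0.28; it read -5.03, -5.25 and -4.88 in wild type and -4.92, -4.65 and -4.83 in knockout, and its change of 0.25 ± 0.21 was not called, while Rpl3 changed by 0.43 ± 0.11 (adjusted p = 0.0185). Rpl26 changed by 0.12 ± 0.08, Rpl39 by 0.24 ± 0.09, Rps4x by 0.18 ± 0.10 and Rpl10 by 0.24 ± 0.07, and only Rpl10 was called (adjusted p = 0.0315).

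Rps4y2, a relative of Rps4x that RefSeq names Rps4l and places on chromosome 6, had the lowest genotype change of any member at both ages, under 75th-percentile scaling without a block. It read 2.61, 2.85 and 2.70 in wild type at 6 weeks, 2.18, 2.32 and 2.11 in knockout at 6 weeks, 2.44, 2.39 and 2.42 in wild type at 12 weeks, and 1.97, 2.38 and 2.12 in knockout at 12 weeks. The knockouts lay below the wild types of the same age at both ages, narrowly at 12 weeks. It had the smallest p of any member at 6 weeks, with a change of -0.51 ± 0.11 (limma, adjusted p = 0.0577), -0.47 ± 0.12 with slide as a block. It was called lower at 6 weeks under 6 other settings, which are given in the closing section. The share of all genes called in those settings ran from 0.744% to 2.25%.

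At 6 weeks no member was called between knockout and wild type, beside 0.933% of all genes; at an unadjusted p under 0.05, 8 members were higher and 1 lower, beside 18.5% of all genes. With slide as a block the count was also 0, beside 0.499%. The changes were still mostly on one side: 77 of 81 were above 0, beside 57.5% of all genes, with a median of 0.13 beside 0.04 for all genes. After quantile normalization the median was 0.03, with 53 above 0. The 6-week wild-type arrays all lay in slide column 2 and the 6-week knockouts all in column 1, so from the 6-week arrays alone column and genotype cannot be told apart. With slide column as a block, a fit that rests on the 12-week wild types, where replicate 1 alone was in column 2, the median was -0.01 and 36 of 81 were above 0. Leaving out single arrays, the median ran from 0.08 without replicate 3 of the 6-week knockout to 0.18 without replicate 1. Within slide 1 alone, replicates 1 and 2 of the knockout exceeded the wild type by a median of 0.08, with 72 of 81 members above 0, beside 53.8% of all genes. Rps28 of the small subunit was among the 3 members with the smallest p. It read 6.70, 6.75 and 6.63 in wild type and 6.85, 6.92 and 7.01 in knockout, wholly apart, without passing the adjusted threshold.

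No member was called with age within either genotype. In wild type, where all arrays were on slide 1, 0 members were called between 12 and 6 weeks, beside 0.639% of all genes (1.5% with slide as a block, and again 0 members), and 3 had an unadjusted p under 0.05, beside 14.7%; the median change was -0.03. The 3 were Rpl21, Rps4y2 and Rps15, a small-subunit protein at the decoding centre. Rpl21, whose probe was dim, read -1.39, -1.22 and -1.53 at 6 weeks and -1.22, -1.04 and -0.99 at 12 weeks (0.30 ± 0.10, limma, adjusted p = 0.19). Rps15 read 6.08, 6.02 and 5.93 at 6 weeks and 5.81, 5.83 and 5.89 at 12 weeks, lower on every 12-week array and not called. In knockout, 0 members were called, beside 2.18% of all genes (0 and 0.0718% with slide as a block), and 10 had an unadjusted p under 0.05, all higher, beside 26.9%; the median was 0.11, and -0.02 with slide as a block. The smallest p was that of Rps15, which read 5.85, 6.02 and 6.10 at 6 weeks and 6.25, 6.22 and 6.22 at 12 weeks (0.24 ± 0.07, limma, adjusted p = 0.0886). Rpl13 (0.31 ± 0.10, limma, adjusted p = 0.1) followed, and then Rpl28, which read 6.08, 6.18 and 6.57 at 6 weeks and 6.52, 6.63 and 6.54 at 12 weeks. For both, replicate 3 of the 6-week knockout lay with the 12-week arrays.

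The test of whether the genotype effect differed between ages called 0 members, beside 0.189% of all genes, with 6 at an unadjusted p under 0.05, beside 19.6%. The median of that difference was 0.13. It ran from 0.07 without replicate 1 of the 6-week knockout to 0.20 without replicate 3 of that group. With slide as a block it was -0.00, and 0 members were called, beside 0.0718% of all genes. The smallest p of a member was that of Rps15 (0.41 ± 0.10, limma, adjusted p = 0.124). So the 41 calls at 12 weeks and none at 6 weeks were not shown to differ between the ages. Without replicate 3 of the 6-week knockout, the array on slide 2, the same test called 15 members higher (18.5%), beside 17.9% of all genes either way and 10.3% higher. Without it, 20 members (24.7%) were called higher at 12 than at 6 weeks in knockout, beside 28% of all genes either way and 16.2% higher.

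The arrays themselves were ranked by the members in a way that followed the slides. The median deviation of the 81 members from their own means over 12 arrays was -0.11, 0.00 and -0.14 in wild type at 6 weeks and -0.21, -0.09 and -0.05 in wild type at 12 weeks. In knockout at 6 weeks it was -0.06, 0.03 and, on slide 2, 0.17. In knockout at 12 weeks it was 0.17, 0.20 and 0.07. All 4 arrays of slide 2 lay above all 8 arrays of slide 1. The array lowest in most members was wild type at 12 weeks, replicate 1, with 50 of 81 members at their lowest there. That array also stood apart in liver markers, with Alb at -1.11 and Serpina1a at 1.07 against -3.67 and -6.95, and -2.02 and -3.52, in the other two 12-week wild types, and the part of this in the members' values was not tested. The array highest in most was knockout at 12 weeks, replicate 2, with 41. The 12-week count was 18 without either of those arrays, 19 without replicate 1 of the 12-week knockout and 25 without replicate 2 of the 12-week wild type; the shares of all genes called higher were then 12% and 12.4%, 10.9% and 11.8%, and those called either way 22.4% and 22.6%, 19.6% and 20.4%. The shares of members were 22.2%, 23.5% and 30.9%. Of the 41, 17 remained called whichever single array was left out, a count that was not made for all genes.

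**Figure D3:**
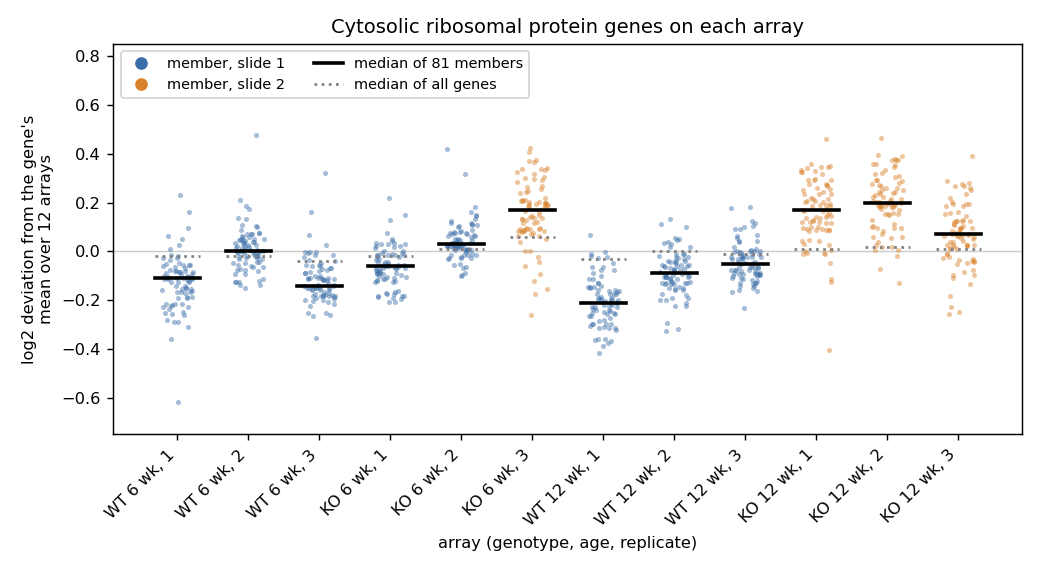
Deviation of each of the 81 members from its own mean over the 12 arrays, in log2 units, for each array in order of age and genotype; blue points are on slide 1, orange points on slide 2, black bars are the median of the members and dotted bars that of all genes. The member medians of the slide 2 arrays lie between 0.07 and 0.20 and those of the slide 1 arrays between -0.21 and 0.03.

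Only the 6-week knockout had arrays on both slides, with replicate 3 alone on slide 2. In the 6-week knockout, the slide 2 array exceeded the mean of the slide 1 arrays by a median of 0.16 over the members, with 68 of 81 above 0, beside a median of 0.07 and 59.1% above 0 for all genes. It lay above both slide 1 arrays for 65 of 81 members (80.2%), beside 49.5% of all genes. Within slide 2, the 12-week knockouts differed from that 6-week array by a median of -0.02, with 24 of 81 members above 0. The 12-week change was also set against the difference between the slide 2 array and the slide 1 arrays of the 6-week knockout, which comes from different arrays. Across the 81 members these had a Pearson r of 0.84 and a Spearman rho of 0.89. Over all genes the values were 0.63 and 0.66. Genes are not independent replicates, so these values describe the 12 arrays only. That group has 1 array on slide 2, so for it the slide and the animal cannot be told apart.

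**Figure D4:**
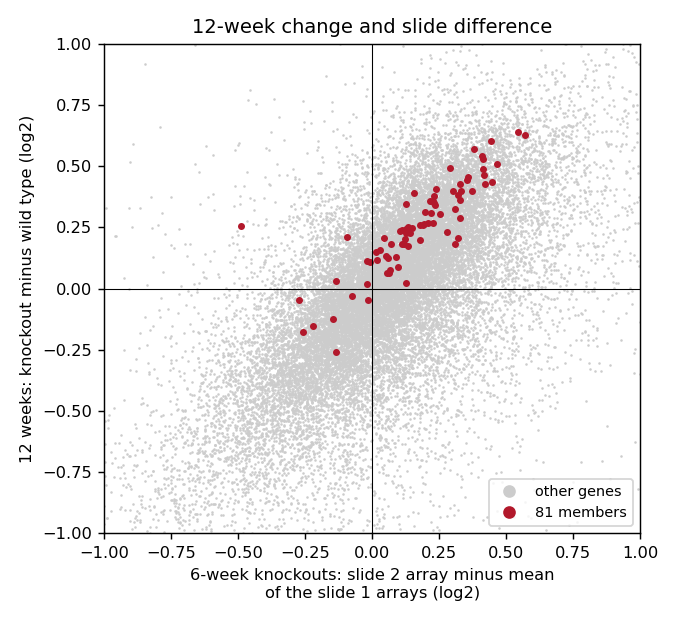
Change at 12 weeks (knockout minus wild type) against the difference between the slide 2 array and the mean of the slide 1 arrays among the 6-week knockouts, both in log2 units; red points are the 81 members and grey points the other genes within 1 unit of 0. The members run along a rising line with r = 0.84.

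The 12-week change also went with the brightness of the probe. Across the members it had r = 0.35 with the mean value over 12 arrays, and across all genes 0.32; after quantile normalization these were -0.21 and 0.02. Most members are bright: 75 of 81 had a mean value of at least 4. Among those 75, 41 rose (54.7%), with a median of 0.26, and among the 2268 other genes as bright, 48.6% rose and 2.78% fell, with a median of 0.25. After quantile normalization, 7 of the 75 members were higher and 9 lower, and of the other bright genes 358 were higher and 333 lower. At a mean value of 6 and more, 35 of 52 members rose (67.3%), as did 331 of 503 other genes (65.8%). Between 4 and 6, 6 of 23 members rose (26.1%) and 43.7% of 1765 other genes. The differences between members and other genes were not tested. Scaling each array on its median gave 58 members called (71.6%), beside 27.9% of all genes higher and 35.5% either way. The members' median was then 0.37, while the median of all genes was 0.14 in place of 0.02.

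**Figure D5:**
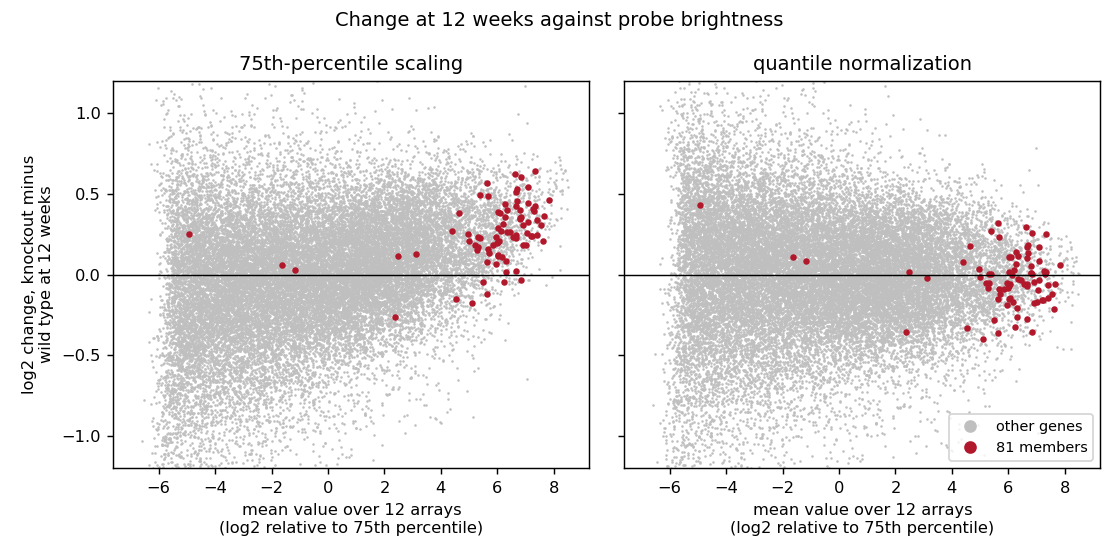
Change at 12 weeks (knockout minus wild type, log2) against the mean value over the 12 arrays (log2 relative to the 75th percentile, the same in both panels), with 75th-percentile scaling on the left and quantile normalization on the right, for the 81 members in red and the other genes in grey; changes beyond 1.2 units are not drawn. Under 75th-percentile scaling the median of genes with a mean value of at least 4 lies above 0, at 0.26 for members and 0.25 for other genes, and after quantile normalization the median of all 81 members is -0.03.

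Probe composition was a further measure that went with the change. The probes are 60 bases long, and their GC content had r = 0.33 with the 12-week change over the members and 0.24 over all genes. Split into 3 sets of 27 by probe GC, from lowest to highest, 9, 16 and 16 members rose, with medians of 0.18, 0.26 and 0.34. Over all genes, 25.1% rose where probe GC was at least 45%, the lowest value in the highest set, and 12.9% rose where it was lower. Within genes, the probe with the higher GC gave the higher change in 33 of 49 members with probes of unequal GC. With each array's trend on probe GC removed, 37 members were called higher at 12 weeks (45.7%), beside 16.9% of all genes higher and 31.3% either way, and 30 of the 41 were among them.

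The members have 179 kept probes in all, and 54 members have more than 1. Of the 98 probes not used to stand for a gene, 38 rose at 12 weeks and 1 fell, with a median of 0.20. In the same comparison 18.5% of all genes rose and 14.5% fell. Of the other genes with a mean value of at least 4, 48.6% rose. Counts of the 98 probes with slide as a block or after quantile normalization are not given. Of the 31 called members with another probe, 27 had every other probe above 0 and 21 had another probe called. Some of these other probes are placed on another chromosome than the gene. Rpl13, on chromosome 8, has other probes on chromosome 4, and Rpl36, on chromosome 17, has one on chromosome X. Whether such probes read the gene or a copy elsewhere was not tested. The second probe of Rpl37a gave 0.57 ± 0.11, the other probes of Rpl24 gave 0.60 ± 0.14 and 0.40 ± 0.10, and that of Rpl29 gave 0.38 ± 0.07, all called. The second probe of Rps2 gave 0.19 ± 0.09 (limma, adjusted p = 0.114), and those of Rpsa gave 0.42 ± 0.08, 0.19 ± 0.08 and 0.01 ± 0.13, of which the first was called. Rps18 had a second probe with the opposite sign (0.23 ± 0.08, adjusted p = 0.0554). The probes disagreed most for Rpl39, from -0.23 at a GC of 26.7% to 0.53 at 45%, and the only called fall was a probe of Rps15a (-0.43 ± 0.11, adjusted p = 0.0165), whose gene's brightest probe gave 0.17 ± 0.09. In 16 members the probes lay on both sides of 0.

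Ribosomal protein genes have many processed pseudogenes, and a probe can read more than the gene it is named for. For 78 members the probe lay among the neighbours of the gene in RefSeq, and for 3 it did not: Rps2, Rps27 and Rps29, all of which rose. The files (build mm9) place the Rps2 probe at chr17:42864841-42864900, away from the RefSeq neighbours of Rps2 on the same chromosome, the Rps27 probe on chromosome 9 with the gene on chromosome 3, and the Rps29 probe on chromosome 2 with the gene on chromosome 12. The Rps29 probe is printed because its letters read as the end of a coding sequence, with the stop codon in capitals, at the place given as chr2:172335021-172335079.
Rps29 probe: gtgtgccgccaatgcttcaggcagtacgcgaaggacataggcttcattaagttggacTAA
For these 3 members, whether the signal came from the gene or from a copy elsewhere was not tested.

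Other genes of the same machinery stood as follows at 12 weeks. Of 75 mitochondrial ribosomal proteins, which belong to a separate ribosome, 28 rose and 1 fell, with a median of 0.19; after quantile normalization 20 were higher and 6 lower. Mrps7 had the largest rise, 0.55 (limma, adjusted p = 0.00476). Of 39 ribosome biogenesis genes, 18 rose and 3 fell, with a median of 0.22, and after quantile normalization 12 were higher and 5 lower. Eif6, which keeps the subunits apart (0.64 ± 0.13), Rrp1 (0.63 ± 0.11), Rrp9 (0.57 ± 0.08) and Bop1 of the PeBoW complex (0.55 ± 0.10) rose, while Dkc1, the pseudouridine synthase (-0.43 ± 0.11), Ncl, nucleolin (-0.33 ± 0.07), and Wdr43 (-0.26 ± 0.08) fell. Of 17 elongation and other factors whose mRNAs also carry TOP tracts, 5 rose and 0 fell, with a median of 0.18, against 2 higher and 5 lower after quantile normalization. Among them Eef1g (0.75 ± 0.15) and Eif3k (0.51 ± 0.11) rose, and Eef1a1 (-0.04 ± 0.07) and Npm1 (-0.05 ± 0.11) were not called. Of 18 genes of mTOR and TOP signalling, 3 rose and 1 fell, with a median of -0.03, against 2 higher and 6 lower after quantile normalization. Akt1s1, the mTOR inhibitor PRAS40, changed by 0.85 ± 0.15 and Rptor by -0.23 ± 0.08, while Larp1 and Mtor were not called. At 12 weeks with slide as a block, and at 6 weeks without it, 0 genes of these 4 lists were called.

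Markers of other cells moved with the 12-week comparison too, and their part in the members' values was not tested. Over the 4 brain cell lists, neuron markers summed on the linear scale to 267 to 277 in wild type and 297 to 326 in knockout at 12 weeks, astrocyte markers to 293 to 310 and 368 to 412, microglia markers to 28.9 to 31.2 and 35.9 to 37.5, and oligodendrocyte markers to 221 in wild type and 224 to 225 in knockout. The summed linear value of 3 red blood cell markers ran from 58 to 81.2 in wild type and from 84.5 to 139 in knockout at 12 weeks. That of 5 neutrophil markers, of which 4 were tested, ran from 0.7 to 0.859 and from 1.43 to 3.52. At 12 weeks the ranges overlapped for choroid plexus markers (78.6 to 89 and 84.3 to 105) and meningeal markers (14.6 to 16.4 and 14.1 to 16.4), and those for proliferation markers were 0.897 to 0.995 and 1.02 to 1.05. The proliferation sum rests mostly on Dcx, the brightest of the 4, with 12-week means of -0.44 in wild type and -0.30 in knockout. Mki67 averaged -2.73 and -2.75, Top2a -5.69 and -5.70, and Ccnb1 -4.78 and -4.29. Of these 4 markers 0 were called, with 2 changes above 0 and 2 below. At 6 weeks liver markers, of which 2 were tested, summed to 0.0697 to 0.0992 in wild type and 0.69 to 1.13 in knockout, and for every other list the ranges overlapped. At 12 weeks they ran from 0.099 to 2.6 in wild type and from 0.134 to 0.232 in knockout. The replicate spread of the members was small: their median pooled SD was 0.11, beside 0.14 for all genes, from 0.06 in Rpl4 and Rps6 to 0.28 in Rpl3l.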

How the data were processed

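The authors deposited a scan file per array and a value table, both holding fluorescence intensity, per the file headers, with flags (other values, 0 or 1) for outlier spots and spots well above background. The submitters' processing notes name Agilent Feature Extraction 10.7.3.1. The value table differed from the processed signal by at most 0.498%. Each array has 62976 spots, 59305 of them not controls. The log2 processed signal was taken relative to the array's 75th percentile after outlier spots were dropped, spots of a probe were averaged, and the brightest kept probe stood for a gene; 37202 probes and 26463 genes were kept. limma 3.58.1 in R 4.3.3 (lmFit, eBayes, 8 residual degrees of freedom, two-sided) was fitted on all 12 arrays, with p-values of each of the 5 comparisons adjusted by Benjamini-Hochberg across all genes and a threshold of 0.05. The script was tested on simulated data. The members, lists and tests were chosen with earlier results of these data known. Named genes are Il18, paralogs and their parents, qPCR reference genes, and per comparison the 4 largest rises and falls called or, under 3 calls, the 3 smallest p-values; others were named after their values were seen. Of the members, 81 matched RefSeq. Replicate numbers did not pair the arrays. Some genes that this rule names are not reported here.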

Additional observations from a re-analysis of the deposited data

How the results depend on the processing

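At 12 weeks the count of members called was 41. It was 0 with slide as a fixed block, 0 with slide as a random block (within-slide correlation 0.36), 18 with slide column as a block (22.2%, beside 12% of all genes higher and 22.4% either way; at 12 weeks this is the fit without wild-type replicate 1), and 17 after quantile normalization, 7 higher and 10 lower (21%, beside 29.8% of all genes). Leaving out 1 array at a time gave 18 to 44, with 18 without wild-type replicate 1, 25 without wild-type replicate 2, 19 without knockout replicate 1 and 18 without knockout replicate 2, of which 1 was lower. The 44 came without replicate 3 of the 6-week knockout (54.3%, beside 22.5% of all genes higher and 39.5% either way). Without wild-type replicates 2 and 3, the arrays with the most spots above background, 1 was called, beside 1.83% of all genes; that group then holds 1 array, assumed to vary like the other groups (an alternative chosen after seeing the data, as was the GC correction). The median change of 0.25 became 0.08 with the fixed slide block, -0.03 after quantile normalization, 0.37 with median scaling and 0.35 without wild-type replicates 2 and 3. At 6 weeks the median of 0.13 became -0.01 with slide column, 0.03 after quantile normalization and 0.22 with median scaling. The 6-week count of 0 became 1, Rps4y2 lower, with normexp, after quantile normalization, with probes above background on all 12 arrays, with trend and robust eBayes, without replicate 2 of the 12-week knockout, and with the GC trend removed. The shares of all genes called in these 6 settings were 2.25%, 1.73%, 1.22%, 1.69%, 0.744% and 1.05%, in that order. The 1 call was 1.23% of the members, or 1.25% with probes above background on all 12 arrays. With age in wild type the median was -0.13 with slide column and also -0.13 without 12-week replicates 2 and 3. In knockout it was -0.02 with the slide block and -0.04 after quantile normalization, and without 6-week replicate 3 the count was 20 (0 to 20 over single arrays left out). For the difference between ages the median was -0.00 with the slide block, 0.23 with slide column, -0.06 after quantile normalization and 0.23 without wild-type 12-week replicates 2 and 3, and the count was 15 without replicate 3 of the 6-week knockout (0 to 15). Of the 41 members called higher at 12 weeks, 12 changed sign after quantile normalization and were then not called; 4 others changed sign and were called lower, and 22 changed sign and were called in neither fit. Of the genes named by rule, Rpl7 (-0.26, called), Rpl10 (-0.15), Rpl13a (-0.02), Rpl32 (-0.06) and Rps29 (-0.07) reversed after quantile normalization and Rpl28 (-0.01) with the slide block. Rps10 (-0.16), Rpl41 (-0.21, called), Rps3a (-0.21, called) and Rpl6 (-0.28, called), named otherwise, reversed after quantile normalization too, and Rplp0 (-0.06), Rplp1 (-0.17) and Rpl27 (-0.05) changed sign without being called. Leaving out single arrays moved the median to 0.08 to 0.18 at 6 weeks, 0.22 to 0.29 at 12 weeks, -0.07 to 0.02 with age in wild type, 0.05 to 0.17 with age in knockout and 0.07 to 0.20 for the difference between ages. The cause of these moves was not tested.

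A replicate block gave 39 members called at 12 weeks (48.1%), beside 16.1% of all genes higher and 28.6% either way. Deviations of same-numbered arrays correlated by -0.20 to 0.11 over 18 pairs, and 2 of 12 arrays correlated best with their own number, so the numbers do not pair the arrays. The other settings, normexp, the deposited value table, no filter, only the groups compared and the mean of a gene's probes among them, kept the 12-week count within 1.5 times 41. With 3 arrays per group, and every 12-week knockout on slide 2, the 12-week arrays alone cannot separate slide from genotype.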
